A study of Mus musculus with 48 samples.

Results

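The genes described are 10 genes of epithelial junctions and keratin filaments, 10 of the 22173 genes counted in gonadal somatic cells and 9 of the 13682 genes with an FPKM value in cells induced from embryonic stem cells. They are Cdh1, Epcam, Cldn3, Cldn4, Cldn6, Cldn7, Krt8, Krt18, Krt19 and Spint2, chosen by symbol and, in the single-cell table, by Ensembl identifier. No FPKM value of Cldn6 was analysed here. The study exposed female C57BL/6 mouse embryonic stem cells, plated on fibronectin without the 2i and LIF that keep them pluripotent, to small molecules in order to obtain gonadal somatic cell-like cells. Vitamin C (Vc), the retinoic acid receptor alpha agonist AM580, and both together (V580) were given, and cells without either molecule were the control (Con). Each of these 4 groups had 2 libraries at 24 h and 2 at 48 h. V580 cells were also sequenced on days 4, 6, 8 and 10 (V580_D4 to V580_D10), with 3 libraries a day, next to 3 libraries of cells separated from E12.5 female gonads (E12.5_GC), from which SSEA1-positive germ cells had been removed on magnetic columns. A stage series had 2 libraries each of gonadal somatic cells (E12.5, E13.5, E16.5) and of somatic cells from the 6-week ovary (P6w), and 1 library of single V580 cells was made on day 6.

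Cdh1 encodes E-cadherin, the calcium-dependent adhesion molecule of adherens junctions, and Epcam a surface adhesion protein of epithelia and of embryonic stem cells. Claudins are the membrane strands of tight junctions, which close the space between neighbouring epithelial cells. Krt8, a type II keratin, pairs with the type I keratin Krt18 in the filaments of simple epithelia, and Krt19 is a further type I keratin of such cells. Spint2 is a membrane-bound inhibitor of serine proteases, among them the epithelial protease matriptase. The surface of the fetal gonad is a simple epithelium from which part of the somatic cells derive, and the cells inside the ovary lie in cords and stroma.

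The 8 stage libraries held 12694769 to 22259044 counts. The FPKM table gives no counts, so the depth of its 31 libraries is unknown. Replicates of the induced groups differed by a root mean square of 0.0886 to 0.148 on the log2(FPKM+1) scale, and those of E12.5_GC by 0.2999 to 0.467. Labels do not say whether replicates were separate cultures or animals, so p-values measure the spread between these libraries. E12.5_GC also held transcripts of the erythroid and mesonephric marker lists. The summed FPKM of 2 measured erythroid markers was 1023 to 4372 (0 to 0.169 in V580_D6), and that of 4 mesonephric markers 42.8 to 56.3 (17.5 to 20.1). Whether the mesonephric sum came from kidney-primordium or gonad cells was not tested. Ddx3y, a Y-linked gene, reached no fewer than 97 counts in both stage libraries of female E12.5 gonads and 0 to 4 in the other 6. In each comparison of a later stage with E12.5, stage and this Y-linked difference therefore cannot be told apart. Both E12.5 libraries, both of E13.5 and E16.5 replicate 1 were sequenced on one lane, and E16.5 replicate 2 and both P6w libraries on another, by the labels.

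On the mm10 assembly (GRCm38, GENCODE vM21 annotation), Krt8 lies at chr15:101996698-102004482 on the minus strand and Krt18 at chr15:102028180-102032027 on the plus strand, with 23697 bases between them. Cldn4 (chr5:134945119-134946934, minus) and Cldn3 (chr5:134986214-134987472, plus) are neighbours as well, 39279 bases apart. Epcam lies at chr17:87635979-87651129, Cldn6 at chr17:23679249-23682446, Cldn7 at chr11:69964779-69967885 and Cdh1 at chr8:106603351-106670246, all on the plus strand, and Krt19 at chr11:100140810-100148665 and Spint2 at chr7:29256323-29281912 on the minus strand. All 10 are protein-coding. The RefSeq table used here (GRCm38.p6) held start-site windows, 250 bases before to 50 after the start, for 8 of the 10 genes; Cdh1 and Krt19 had none. The windows shown are those of the keratin pair, the claudin pair and Epcam, because these genes recur in the results. Capitals mark CACCTG, the E-box bound by the Zeb and Snai repressors of epithelial genes, and GGGCGG, the GC box, on either strand (CAGGTG and CCGCCC on the opposite one); the 2 motifs share no match here.
Krt8, chr15:102004293-102004592, minus strand: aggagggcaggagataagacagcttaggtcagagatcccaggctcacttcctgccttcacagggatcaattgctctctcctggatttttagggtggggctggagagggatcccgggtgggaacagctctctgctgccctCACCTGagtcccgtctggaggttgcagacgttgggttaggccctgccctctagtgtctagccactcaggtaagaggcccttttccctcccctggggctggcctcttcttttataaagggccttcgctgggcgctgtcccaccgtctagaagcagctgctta
Krt18, chr15:102027966-102028265, plus strand: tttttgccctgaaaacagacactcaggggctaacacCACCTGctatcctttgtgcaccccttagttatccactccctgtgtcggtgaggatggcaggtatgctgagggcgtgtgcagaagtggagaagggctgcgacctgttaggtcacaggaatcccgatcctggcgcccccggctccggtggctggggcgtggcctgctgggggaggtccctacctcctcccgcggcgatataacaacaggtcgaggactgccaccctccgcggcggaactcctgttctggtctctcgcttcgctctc
Cldn3, chr5:134985964-134986263, plus strand: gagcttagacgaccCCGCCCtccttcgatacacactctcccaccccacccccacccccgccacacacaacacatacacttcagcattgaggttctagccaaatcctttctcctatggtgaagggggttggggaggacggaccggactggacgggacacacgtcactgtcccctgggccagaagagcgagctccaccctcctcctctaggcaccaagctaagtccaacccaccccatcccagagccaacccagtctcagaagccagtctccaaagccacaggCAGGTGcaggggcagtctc
Cldn4, chr5:134946885-134947184, minus strand: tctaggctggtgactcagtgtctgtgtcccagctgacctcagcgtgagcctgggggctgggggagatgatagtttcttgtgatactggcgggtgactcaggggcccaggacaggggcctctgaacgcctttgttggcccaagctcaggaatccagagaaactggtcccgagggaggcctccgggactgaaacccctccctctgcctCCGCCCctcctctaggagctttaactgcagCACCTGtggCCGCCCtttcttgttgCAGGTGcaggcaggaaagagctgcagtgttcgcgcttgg
Epcam, chr17:87635729-87636028, plus strand: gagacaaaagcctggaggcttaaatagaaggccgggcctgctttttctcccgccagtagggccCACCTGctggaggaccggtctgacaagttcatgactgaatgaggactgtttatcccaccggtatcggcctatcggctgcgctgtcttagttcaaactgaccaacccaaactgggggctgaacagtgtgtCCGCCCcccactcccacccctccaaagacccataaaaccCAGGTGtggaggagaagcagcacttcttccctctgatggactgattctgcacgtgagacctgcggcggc

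CACCTG was found in the windows of 8 of these 8 genes, in 1 to 3 copies a gene, against 22.1% of 17492 protein-coding genes and 20.2% of all 32851 windows. In Krt8 and Krt18 the match lay 111 and 214 bases before the start site, and in Cldn4 1 match lay 14 bases before it and another 11 bases after it. GGGCGG was found for 6 of the 8 genes, all but Krt8 and Krt18, against 49.2% of protein-coding genes. AACCGGTT, a Grainyhead-like motif, was found for 0 of the 8 (0.212% of protein-coding genes), and the direct repeat bound by retinoic acid receptors, searched as AGGTCA, any 5 bases and AGGTCA again, for 0 of the 8 (0.00572%). A match describes letters in a window and not binding.

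Control cells already expressed these genes at 24 h, and their levels moved apart by 48 h. The times are those of the labels; the study's text calls its controls day 0, so what separates the 2 control groups is uncertain. Cldn7 had 3.26 and 3.72 FPKM in Con_24h and 23.6 and 23.4 in Con_48h. Krt19 went the other way, with 21.1 and 22.6 FPKM at 24 h and 3.61 and 3.18 at 48 h. Cldn4 had 103.2 and 114 FPKM at 24 h and 52.6 and 53.8 at 48 h. The 2 times did not overlap for any of these 3 genes. How often genes in general lacked overlap was not counted, so such statements, here and below, describe the values only. On the log2(FPKM+1) scale, on which the fold of a gene with few FPKM is understated, Cldn7 rose by 2.45 (SE 0.14, limma adjusted p = 8.82e-10), Krt19 fell by 2.38 (SE 0.10, adjusted p = 1.84e-11) and Cldn4 fell by 1.02 (SE 0.06, adjusted p = 6.17e-10). A gene was called when its Benjamini-Hochberg adjusted p over all genes tested was under 0.05 and its change was at least 2-fold. By that rule 1 of 9 members was higher and 2 were lower at 48 h, against 2.52% and 5.2% of 10644 genes.

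AM580 at 48 h was the treatment with the clearest keratin values. Krt8 had 32.3 and 31.8 FPKM in Con_48h and 101.3 and 95.7 in AM580_48h. Krt18 had 35.7 and 37.2 FPKM in the control and 81.3 and 81.7 with AM580. Krt19 had 3.61 and 3.18 FPKM against 7.99 and 6.49. The groups did not overlap for any keratin. Krt8 rose by 1.59 (SE 0.05, limma adjusted p = 8.09e-12) and Krt18 by 1.14 (SE 0.04, adjusted p = 1.81e-11), and the log2 difference of Krt19 was 0.90 (SE 0.10, adjusted p = 1.73e-06). The ratio of mean FPKM of Krt19 was 2.13, so that it missed the 2-fold limit only on the log2(FPKM+1) scale, and it passed with a pseudocount of 0.1 (1.07) or without AM580_48h replicate 2 (1.035). Thus 2 of 9 members were called higher and 0 lower, against 2.33% and 0.902% of all genes tested, and 3 were higher in either of those settings.

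The junction genes split under AM580. Cdh1 had 191 and 196 FPKM in Con_48h and 128 and 126 in AM580_48h, a log2 difference of -0.61 (SE 0.04, limma adjusted p = 6.05e-09). Epcam had 212 and 210 FPKM against 144 and 147, a difference of -0.54 (adjusted p = 1.56e-08), and Cldn7 23.6 and 23.4 against 13.54 and 11.5, a difference of -0.86 (adjusted p = 0.000113). The groups did not overlap for Cdh1, Epcam or Cldn7, and each difference was under 2-fold. Cldn3 and Cldn4 lay on the keratin side, also without overlap and under 2-fold. Cldn3 had 9.79 and 10.4 FPKM in the control and 16.6 and 17.8 with AM580, a log2 difference of 0.72 (adjusted p = 7.31e-05), and Cldn4 52.6 and 53.8 against 66.8 and 73.3, a difference of 0.39 (adjusted p = 3.88e-05). At any fold, 5 members were higher and 4 lower, where 25.7% and 31.2% of all genes were.

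With vitamin C added to AM580 the keratins stood nearer the control. V580_48h had 40.1 and 43.4 FPKM of Krt8, 41.2 and 39.1 of Krt18 and 2.56 and 2.54 of Krt19. All 3 keratins were lower in V580_48h than in AM580_48h, with no overlap. Krt8 was lower by 1.22 on the log2 scale (written as V580 minus AM580, -1.22, SE 0.05, limma adjusted p = 3.05e-09), Krt19 by a difference of -1.21 (SE 0.10, adjusted p = 8.49e-07) and Krt18 by a difference of -1.005 (SE 0.04, adjusted p = 1.85e-09). These 3 were the members called, 3 of 9 lower where 0.235% of all genes were, and 0 were higher where 0.0282% were. Krt18 stood at the 2-fold limit: without V580_48h replicate 2 its difference was -0.97, and after quantile normalization -0.96. V580_48h had 137 and 133 FPKM of Cdh1 and 155 and 159 of Epcam. Their differences from AM580_48h were 0.09 (95% interval 0.01 to 0.18, adjusted p = 0.102) and 0.11 (0.04 to 0.19, adjusted p = 0.0417).

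Against Con_48h, V580 gave 0 called members by limma, where 1.84% of all genes were called higher and 1.34% lower. Limma counts by p alone, here and below, stand without the share of all genes, and nothing about the members is read from them. Of the 9 members, 8 had an unadjusted p under 0.05 and 7 an adjusted one. Their values were small: Cldn7 differed by -0.84 (SE 0.14, limma adjusted p = 0.000131), Cdh1 by -0.52 (SE 0.04, adjusted p = 3.92e-08) and Krt8 by 0.37 (SE 0.05, adjusted p = 4.76e-05). Vitamin C alone at 48 h gave 0 called members as well (0.00939% of genes called higher and 0.0376% lower, 4 members with an unadjusted p under 0.05). Krt19 was at 2.02 and 1.52 FPKM there, a difference of -0.67 from the control (adjusted p = 0.000438). Krt8 was at 24.9 and 23.6 FPKM, a difference of -0.39 (adjusted p = 0.000403).

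At 24 h none of the treatments changed a member by 2-fold. The limma counts were 0 of 9 for Vc, AM580 and V580, with 6, 5 and 6 members at an unadjusted p under 0.05. Of all genes, 0.0564%, 0.366% and 0.47% were called higher and 0.0282%, 0.0376% and 0.225% lower. V580 against AM580 at 24 h also gave 0 of 9, with 7 at an unadjusted p under 0.05 and 0.0376% of all genes called higher and 0.0282% lower. Krt8 had 51.4 and 50.6 FPKM in AM580_24h and 44.0 and 48.2 in Con_24h. The AM580 effect at 48 h minus that at 24 h was 1.45 for Krt8 (SE 0.08, limma adjusted p = 6.20e-09) and 1.03 for Krt18 (SE 0.06, adjusted p = 1.36e-08), 2 of 9 members higher where 1.41% of all genes were and 0 lower where 0.489% were. For V580 the same difference was -1.20 for Cldn7 (SE 0.20, adjusted p = 0.000351), 1 of 9 lower where 0.667% were and 0 higher where 1.16% were.

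Markers of several other cell types also differed between the groups at 48 h, some with the keratins and some not. The summed FPKM of 8 extraembryonic endoderm markers, of which none was at 0 in every library of a group, was 5.51 to 6.14 in Con_48h, 24.2 to 24.3 in AM580_48h and 12.49 to 14.6 in V580_48h; 6 of the 8 were called higher with AM580 and 2 with V580. The 3 measured trophoblast markers summed to 2.10 to 2.52, 9.11 to 9.28 and 6.08 to 6.12 FPKM in the same groups. The sum of 7 pluripotency markers was likewise highest with AM580, at 2320 to 2376, 2842 to 3016 and 2320 to 2418. That of 5 mesothelial markers was 21.1 to 22.5, 30.5 to 31.9 and 23.8 to 24.7. By contrast, 6 granulosa markers summed to 14.2 to 14.5, 10.2 to 10.6 and 4.93 to 5.41. The 5 germ cell markers summed to 37.7 to 39.7, 30.1 to 30.7 and 30.4 to 33.7. Their part in the keratin values was not tested. In bulk libraries, more cells of a type and more RNA per cell cannot be told apart.

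**Figure D1:**
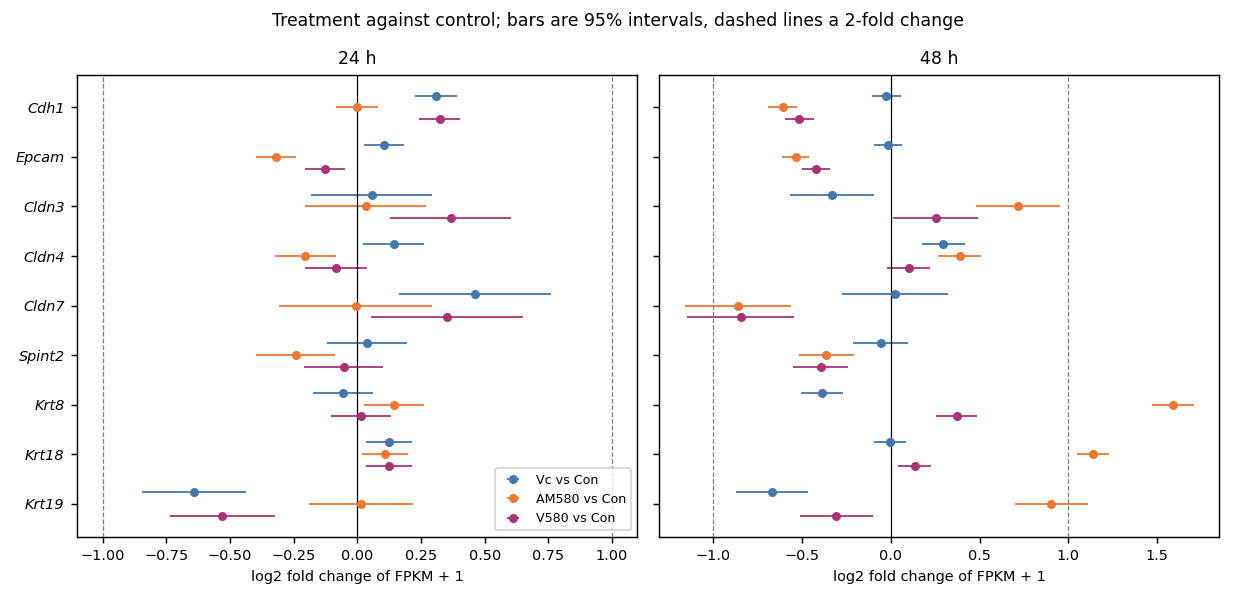
Log2 fold change of FPKM + 1 (horizontal axis) of 9 genes (vertical axis) for Vc, AM580 and V580 against the control at 24 h and 48 h; points are limma estimates from 2 libraries a group, bars 95% intervals, and dashed lines a 2-fold change. Only Krt8 (1.59) and Krt18 (1.14) with AM580 at 48 h lie beyond the dashed lines with an adjusted p under 0.05.

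From 48 h to day 4 of V580 the keratins had the largest rises among the members. The study describes these libraries as separate sets, so time and set cannot be told apart. Krt19 had 2.56 and 2.54 FPKM in V580_48h and 158, 144 and 131 in V580_D4. Krt18 had 41.2 and 39.1 FPKM and then 626, 587 and 593. Krt8 had 40.1 and 43.4 FPKM and then 548, 497 and 488. The log2 differences in limma were 5.35 for Krt19 (SE 0.14, adjusted p = 6.89e-20), 3.87 for Krt18 (SE 0.10, adjusted p = 1.21e-19) and 3.58 for Krt8 (SE 0.11, adjusted p = 3.18e-18). The 3 claudins measured rose as well, Cldn7 by 1.93, Cldn4 by 1.81 and Cldn3 by 1.57, each with an SE of 0.10 to 0.14. Thus 6 of 9 members were called higher and 0 lower, where 9.44% and 6.25% of 11819 genes were. Spint2 went from 34.2 and 34.1 FPKM to 70.7, 71.3 and 65.1, a difference of 0.99 (SE 0.11, adjusted p = 1.32e-08), and passed the 2-fold limit after quantile normalization (1.22). Epcam had 155 and 159 FPKM at 48 h and 155, 159 and 154 on day 4, with a difference of -0.01 (95% interval -0.17 to 0.15, adjusted p = 0.883). Over the same step the summed FPKM of the 8 extraembryonic endoderm markers went from 12.49 to 14.6 in V580_48h to 66.6 to 76.0 in V580_D4 (6 called higher), that of the 3 trophoblast markers from 6.08 to 6.12 to 13.6 to 14.7 (2 higher, 1 lower), and that of 7 pluripotency markers from 2320 to 2418 to 202 to 229 (7 lower). No marker of these lists was at 0 in every library of a group, and their part in the keratin values was not tested.

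After day 4 the members split again. Cdh1 had 228, 207 and 205 FPKM in V580_D4, 88.0, 77.6 and 83.5 in V580_D6, 56.7, 49.2 and 50.03 in V580_D8 and 49.8, 46.8 and 47.1 in V580_D10. Krt19 had 172, 166 and 170 FPKM in V580_D6, 247, 229 and 218 in V580_D8 and 231, 209 and 241.1 in V580_D10. Cdh1 lay lower on day 6 than on day 4 and on day 8 than on day 6, without overlap, whereas Krt19 lay higher at both steps, at an adjusted p of 0.209 in limma for the first. From day 4 to day 6 Cdh1 fell by 1.35 on the log2 scale (SE 0.18, limma adjusted p = 2.32e-05), the 1 member of 9 called lower where 1.67% of 11512 genes were; 0 were higher where 3.41% were. Epcam, with 155, 159 and 154 FPKM on day 4 and 90.9, 80.4 and 83.3 on day 6, differed by -0.87 (SE 0.09, adjusted p = 1.52e-06), Krt18 by -0.76 (adjusted p = 0.000136) and Krt8 by -0.70 (adjusted p = 0.000506). Cldn3, at 39.98, 40.1 and 34.7 FPKM on day 4, differed by 0.05 (adjusted p = 0.784).

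Later steps were smaller. From day 6 to day 8 limma called 0 of 9 members (2.29% of all genes higher and 0.252% lower), with 7 at an unadjusted p under 0.05. The log2 difference was -0.67 for Cdh1 (adjusted p = 0.00806), -0.52 for Epcam (adjusted p = 0.000268) and 0.45 for Krt19 (adjusted p = 0.0210). From day 8 to day 10 it called 0 of 9 (0.973% and 0.321%), with 2 at an unadjusted p under 0.05, and Epcam alone had an adjusted p under 0.05, with 58.9, 60.5 and 56.5 FPKM on day 8, 45.1, 47.2 and 42.7 on day 10 and a difference of -0.38 (adjusted p = 0.00442). Over the same days the summed FPKM of 17 mesenchymal genes was 213 to 234 in V580_D4, 363 to 372 in V580_D6, 792 to 975.3 in V580_D8 and 1618 to 1963 in V580_D10, and that of 6 interstitial markers 88.2 to 99.98, 224 to 228, 544 to 683 and 1321 to 1631. Their part in the fall of Cdh1 was not tested.

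**Figure D2:**
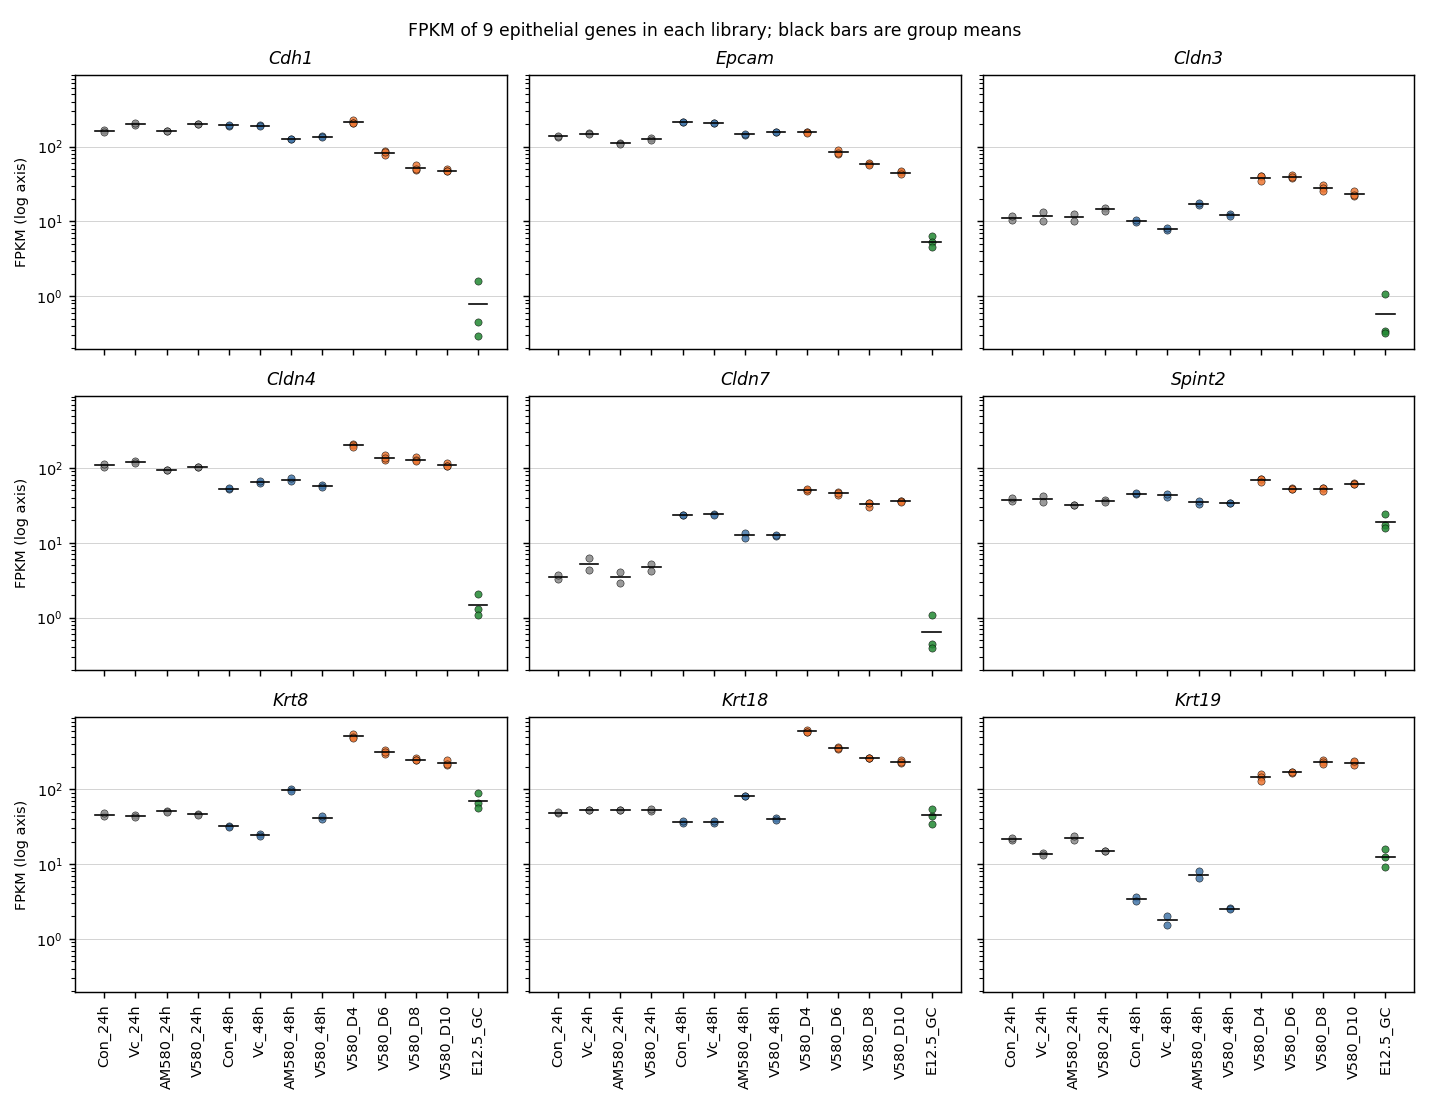
FPKM (log axis) of 9 genes in each of 31 libraries; points are libraries, black bars group means, grey 24 h, blue 48 h, orange V580 days and green E12.5_GC. Krt8, Krt18 and Krt19 stand highest on the V580 days (up to 548, 626 and 247 FPKM), and Cdh1, Cldn3, Cldn4 and Cldn7 stand near 1 FPKM in E12.5_GC.

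All 9 measured members were higher in V580 cells than in E12.5_GC on each of the 4 days. In E12.5_GC, Cdh1 had 1.58, 0.457 and 0.290 FPKM, Cldn3 1.06, 0.339 and 0.325, Cldn7 1.07, 0.438 and 0.393, and Cldn4 2.04, 1.29 and 1.10. Epcam had 6.33, 5.25 and 4.48 FPKM there. The keratins were not low in the gonad: Krt8 had 64.9, 90.3 and 57.1 FPKM, Krt18 44.4, 55.4 and 34.8, and Krt19 12.4, 16.2 and 9.06. E12.5_GC replicate 1 held the highest value of Cdh1 and of the claudins, and replicate 2 the highest of the keratins and of Spint2. No library of any V580 day overlapped with a gonad library for any of the 9 genes. The share of all genes without overlap was not counted.

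The distance was widest on day 4 for Cdh1, at 6.98 on the log2(FPKM+1) scale (SE 0.18, limma adjusted p = 8.35e-14), and was 5.63, 4.96 and 4.85 on days 6, 8 and 10. Cldn4 differed by 6.38, 5.82, 5.74 and 5.51 on the 4 days and Cldn7 by 5.01, 4.87, 4.39 and 4.52. Epcam differed by 4.64, 3.77, 3.24 and 2.86. Krt19 had its largest difference on day 8, at 3.45, 3.68, 4.13 and 4.10, while Krt8 differed by 2.86, 2.16, 1.83 and 1.67 and Krt18 by 3.74, 2.98, 2.55 and 2.39. Spint2, with 17.5, 24.1 and 15.6 FPKM in E12.5_GC and 54.3, 52.0 and 51.9 in V580_D6, differed least, by 1.82, 1.44, 1.42 and 1.66. The 9 of 9 called higher stand against 9.13%, 7.06%, 6.9% and 9.16% of 11512 genes on days 4, 6, 8 and 10 (11.3%, 8.11%, 6.07% and 7.23% lower), and the median member difference on day 6 was 3.77 beside 0.03 over all genes. The 4 comparisons share the 3 gonad libraries, and all 9 genes passed the filter on low values, Cdh1, Cldn3 and Cldn7 not through the gonad libraries. The members were chosen with earlier results of these data known, so the counts beside those shares describe the values and are no test of the set.

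**Figure D3:**
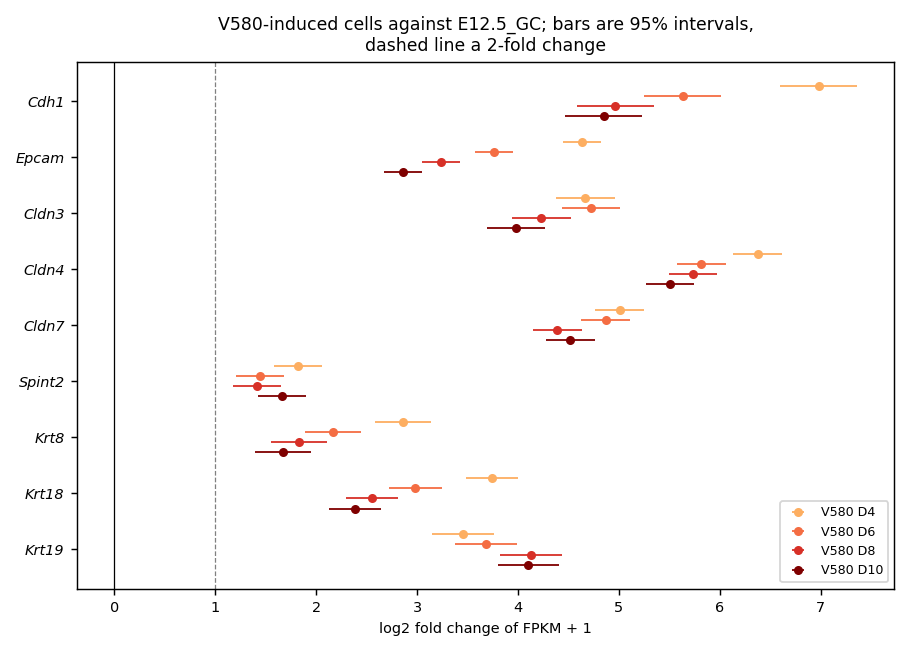
Log2 fold change of FPKM + 1 (horizontal axis) of 9 genes (vertical axis) in V580 cells of days 4, 6, 8 and 10 against E12.5_GC; points are limma estimates from 3 libraries a group, bars 95% intervals. Every point lies right of the dashed 2-fold line, from 1.42 (Spint2, day 8) to 6.98 (Cdh1, day 4).

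Other epithelial genes were read from 5 lists of 80 genes in all (tight junction, adherens junction and desmosome, other keratins, proteases and surface proteins, and transcription or splicing regulators). These lists, too, were chosen with earlier results of these data known, and their counts are no test of the set. In V580_D6 against E12.5_GC 47 of the 80 were tested, of which 26 were called higher and 5 lower, where 7.06% and 8.11% of all genes were, with a median log2 difference of 1.47 beside 0.03 over all genes. The 5 lower, named after their values were seen, were Cgn, Cldn11 and Cgnl1 of tight junctions, Itga6 and Klf4. The 3 with the largest differences were Perp, a desmosome protein, with 51.8, 45.7 and 49.2 FPKM against 0.369, 0.328 and 0.209, Spint1, the relative of Spint2, with 34.7, 31.7 and 32.8 against 1.20, 0.585 and 0.591, and St14, the protease matriptase that both inhibit, with 18.6, 17.1 and 17.1 against 0.306, 0.140 and 0.241. Their log2 differences were 5.26, 4.27 and 3.92. Of the regulators, Esrp1 and Esrp2, epithelial splicing factors, were higher by 2.66 and 1.63, and the transcription factors Klf5 and Elf3 by 2.38 and 2.26, while Klf4 was at 25.3 against 82.6 FPKM on average (-1.65).

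Genes of the mesenchymal state gave mixed values in that comparison. Of 17 tested, 2 were called higher and 3 lower, against the same 7.06% and 8.11% of all genes. Thy1 (2.16) and Twist1 (1.01) were the higher ones and Pdgfrb (-1.35) was lower with Vim and Snai2; Thy1, Twist1 and Pdgfrb are named after their values were seen. Vim, the filament protein of mesenchymal cells, had 56.7, 60.0 and 58.5 FPKM in V580_D6 and 198, 248 and 186 in E12.5_GC, a log2 difference of -1.82 (limma adjusted p = 1.52e-09). Snai2, a repressor of Cdh1, had 6.12, 6.45 and 5.70 against 23.0, 20.9 and 28.1, a difference of -1.81 (adjusted p = 1.64e-10). Zeb1, Zeb2 and Snai1 differed by -0.51, -0.90 and -0.40, and Cdh2, N-cadherin, by 0.18 (adjusted p = 0.0629). At 48 h, by contrast, V580 against the control gave 1 of 42 epithelial-list genes higher and 1 lower (1.84% and 1.34% of all genes): Krt20, a keratin of gut epithelium, with 12.45 and 12.9 against 0.888 and 0.592 FPKM, and Rab25, a vesicle-traffic protein of epithelia, with 2.09 and 2.00 against 5.68 and 6.73. Of 14 mesenchymal genes tested there, 9 passed the adjusted p in limma, each under 2-fold. That count stands without the share of all genes and is not read further. Snai1 differed by 0.90, Zeb1 by 0.79, Snai2 by -0.27, Vim by 0.18 and Cdh2 by 0.10.

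In gonadal somatic cells, CPM per exon length set Krt18 and Krt8 far above the junction genes at E12.5. CPM of the stage libraries are counts scaled to the library total of the genes tested, adjusted by edgeR's TMM factor of each library. Mean CPM divided by exon length in kilobases at E12.5 were 173 for Krt18, 45.2 for Krt8, 8.64 for Spint2 and 7.59 for Krt19. The other 6 genes lay at 1.46 (Epcam), 0.982 (Cldn6), 0.775 (Cldn4), 0.697 (Cldn3), 0.341 (Cldn7) and 0.194 (Cdh1). Reads of Cldn3 could not be told apart from those of the overlapping antisense gene Wbscr25, as the use of strand in counting is not given in the sources used here, and Krt8 overlaps Gm36026 and has a pseudogene, Krt8-ps. Values below are CPM of each library, with edgeR's quasi-likelihood test.

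Between E12.5 and E13.5, 7 of 10 members were called higher and 0 lower, where 23.8% and 22.1% of 16398 genes were. Krt8 had 88.9 and 88.05 CPM at E12.5 and 179 and 189 at E13.5, a log2 difference of 1.06 (SE 0.11, edgeR adjusted p = 7.73e-06). Krt19 had 15.4 and 12.8 CPM against 30.99 and 35.1, a difference of 1.23 (adjusted p = 4.70e-05), and Spint2 37.8 and 40.96 against 80.8 and 78.6, a difference of 1.02 (adjusted p = 5.45e-05). Krt18 rose by 0.91 (adjusted p = 0.000108). The junction genes rested on few reads: Cdh1 had 16 and 21 counts and then 39 and 51, Cldn3 24 and 13 and then 47 and 53, and Epcam 79 and 56 and then 110 and 90. Cdh1 was higher by 1.45 (adjusted p = 0.0152), Cldn3 by 1.61 (adjusted p = 0.00764) and Epcam by 0.74 (adjusted p = 0.0290). Each of these 3 calls was lost when 1 library was left out: Cdh1 without E13.5 replicate 2 (adjusted p = 0.0996) or E12.5 replicate 1 (0.119), Cldn3 without E12.5 replicate 2 (0.0817), and Epcam without E13.5 replicate 1 (0.104), E13.5 replicate 2 (0.0536) or E12.5 replicate 2 (0.219). With an offset fitted to gene length, 4 of 10 members were called.

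At E16.5 Epcam and Cldn4 had the largest differences from E12.5 among the members. Epcam had 496 and 410 counts, which are 21.5 and 25.1 CPM, against 3.66 and 2.77 CPM at E12.5. Cldn4 had 217 and 321 counts, 9.39 and 19.6 CPM, against 1.53 and 1.28. Neither gene overlapped between the stages. Against E12.5 Cldn4 was higher by 3.35 (SE 0.42, edgeR adjusted p = 2.37e-05) and Epcam by 2.85 (SE 0.25, adjusted p = 5.60e-07); within the lane shared by both stages, without E16.5 replicate 2, the differences were 2.73 and 2.73. In that setting Cldn3 (1.37, adjusted p = 0.0276) and Cldn7 (1.80, adjusted p = 0.0418) passed as well, which made 8 of 10 members; with all libraries they differed by 1.02 (adjusted p = 0.0882) and 1.26 (adjusted p = 0.160). Krt19 rose by 2.01, Krt18 by 1.503, Spint2 by 1.12 and Krt8 by 1.06, so that 6 of 10 were higher and 0 lower, where 20.5% and 17.1% of all genes were. Cdh1 had 43 and 23 counts, a difference of 0.89 (adjusted p = 0.142). The summed CPM of 5 germ cell markers was 18.2 to 20.1 at E12.5, 49.4 to 49.8 at E13.5, 104.2 to 136.9 at E16.5 and 25.7 to 27.2 in P6w, and that of 6 interstitial markers 941 to 993, 746 to 763, 2686 to 2983 and 373 to 416, with no marker at 0 in every library of a stage. From E12.5 to E16.5, 3 of the 5 germ cell markers were higher and 0 lower, and 4 of the 6 interstitial markers higher and 1 lower. Their part in the Epcam and Cldn4 values was not tested.

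From E13.5 to E16.5, 4 of 10 members were higher and 1 lower, where 28.7% and 25.4% of all genes were. Cldn4 was higher by 2.24 (SE 0.39, edgeR adjusted p = 0.000225), Epcam by 2.11 (SE 0.24, adjusted p = 4.42e-06), Krt19 by 0.78 (adjusted p = 0.000870) and Krt18 by 0.60 (adjusted p = 0.00192); within 1 lane, without E16.5 replicate 2, the differences were 1.62, 2.01, 0.75 and 0.40. Krt8 had 179 and 189 CPM and then 183 and 186, a difference of 0.00 (95% interval -0.21 to 0.22), the sign of which changed with the scaling (-0.01 with RLE size factors). Cldn6, a claudin of embryonic epithelia, had 55 and 46 counts and then 22 and 16, a difference of -1.48 (SE 0.55, adjusted p = 0.0321). That call was lost without any 1 of the 4 libraries compared, at adjusted p of 0.0617 to 0.0883.

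In the 6-week ovary Krt8 and Krt18 were at their lowest and Cldn3 at its highest. Krt18 had 612 and 801 CPM at E16.5 and 86.1 and 104 in P6w, Krt8 183 and 186 and then 44.0 and 45.6, and Krt19 55.3 and 58.2 and then 10.5 and 13.4. Krt18 fell by 2.89 (SE 0.15, edgeR adjusted p = 3.60e-10), Krt19 by 2.24 (SE 0.18, adjusted p = 4.38e-08) and Krt8 by 2.04 (SE 0.12, adjusted p = 1.22e-09). Cldn4 fell by 2.61, Epcam by 2.30 and Spint2 by 0.92. Cldn3 had 53 and 20 counts at E16.5 and 55 and 73 in P6w, a rise of 1.56 (SE 0.41, adjusted p = 0.00428), which was 1.33 with an adjusted p of 0.0542 without P6w replicate 2. The 6 of 10 lower and 1 higher stand against 29.8% and 26.3% of all genes; within the lane that E16.5 replicate 2 shared with P6w, the 6 lower genes differed by -1.10 to -3.08 and Cldn3 by 2.10.

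Against E12.5, P6w had Krt18 lower by a log2 difference of -1.39 (SE 0.14, edgeR adjusted p = 8.80e-07) and Krt8 by -0.98 (SE 0.12, adjusted p = 3.98e-06), and Cldn3 higher by 2.57 (SE 0.44, adjusted p = 0.000149) and Cdh1 by 1.72 (SE 0.45, adjusted p = 0.00512). That is 2 of 10 in each direction, where 25.4% of all genes were higher and 27.5% lower. The Cdh1 call, on 29 and 42 counts in P6w, was lost without P6w replicate 2 (adjusted p = 0.0636) or E12.5 replicate 1 (0.0535). Lane and stage cannot be told apart in this comparison. The P6w libraries differed from each other for Cldn4 (15 and 42 counts), Cldn6 (8 and 36) and Cldn7 (8 and 30), and none of these 3 was called.

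**Figure D4:**
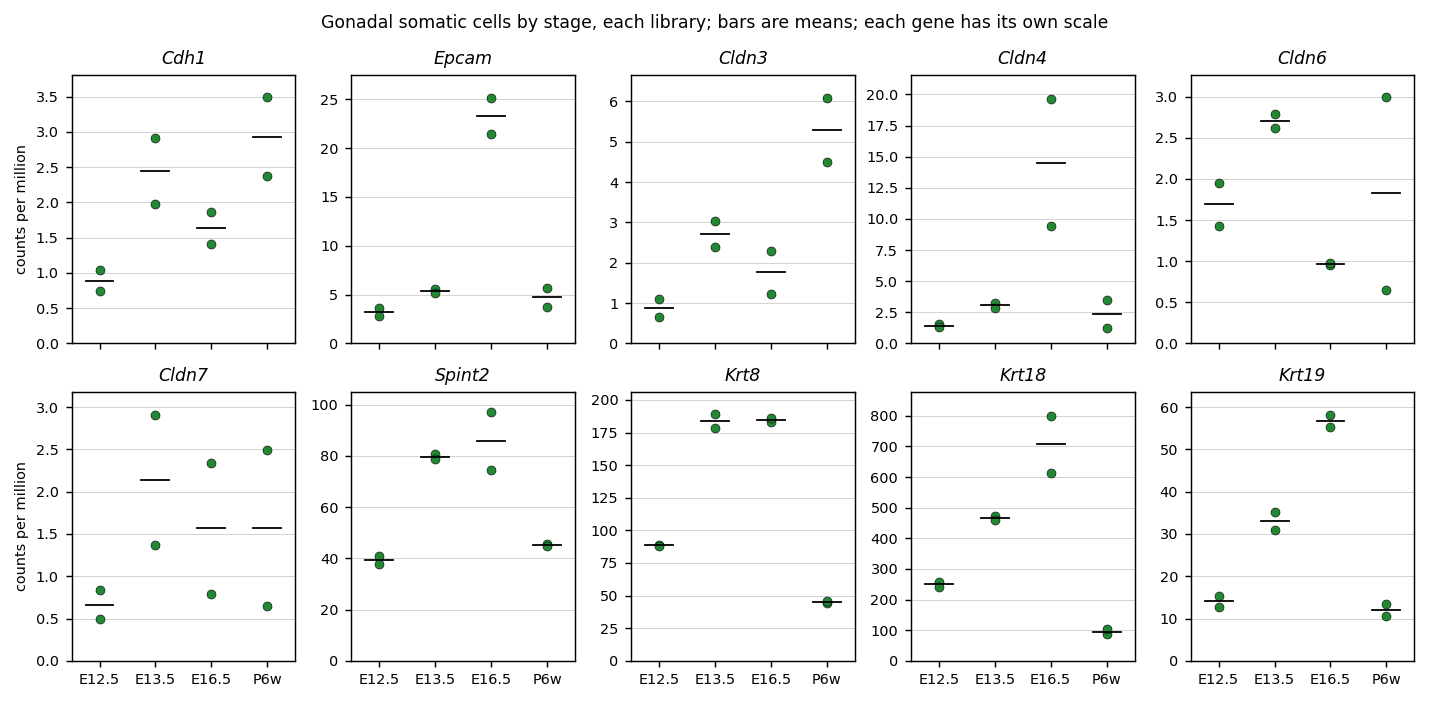
CPM of 10 genes in somatic cells of the gonad at 3 fetal stages and of the 6-week ovary (P6w); points are the 2 libraries of a stage, bars their mean, and each gene has its own axis from 0. Epcam and Cldn4 stand highest at E16.5 (21.5 and 25.1, 9.39 and 19.6 CPM), and Krt8 and Krt18 lowest in P6w.

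Of the 80 further epithelial genes, 65 were tested over the stages. Between E12.5 and P6w 10 were higher and 22 lower (median log2 difference -0.34, beside -0.04 over all genes), where 25.4% and 27.5% of all genes were, so that nothing is read from these counts. The largest differences were in Perp, with 0.185 and 0.346 CPM at E12.5 and 8.82 and 7.41 in P6w, Cgnl1, a tight-junction plaque protein, with 294 and 298 CPM and then 11.1 and 10.7, and Ehf, an epithelial Ets factor, with 0 and 0.148 CPM and then 2.12 and 1.41. Elf3 was higher by 1.20 and Esrp1 by 1.94, and Klf4 lower, by a difference of -1.77. Of 17 mesenchymal genes 3 were higher and 12 lower, among them Snai2 (-2.43), Zeb1 (-1.46), Snai1 (-1.38) and Vim (-1.26), while Cdh2 (0.98), Zeb2 (0.53) and Thy1 (1.90, named after its value was seen) were higher. The summed CPM of 5 mesothelial markers, genes of the gonad's surface cells, was 684 to 702 at E12.5, 365 to 381 at E13.5, 434 to 515 at E16.5 and 96.2 to 107 in P6w, and that of 5 mesonephric markers 116 to 124, 100 to 114, 41.7 to 54.0 and 8.07 to 8.74, with Cdh16, Lhx1 and Pax2 at 0 in P6w. Their part in the keratin values was not tested.

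The single-cell library gave the members' levels by cluster on day 6. Of 15412 barcodes 15315 were kept, with a median of 9281 UMIs, and they were clustered without the 10 genes. With 1 library, the values below carry no test between conditions, and intervals cover counting error only. Krt18 was detected in 78.4% of cells, Krt8 in 64.3% and Krt19 in 56.9%. Epcam was detected in 35.2%, Cldn7 in 24.9%, Cldn6 in 20.7%, Cdh1 in 12.8%, Cldn3 in 10.9% and Cldn4 in 8.61%. Thinned to 1153 UMIs in each of 13783 cells (1532 shallower cells left out), Krt18 was detected in 44.0% and Cdh1 in 2.34%, and 29.7% of cells showed no member, 30.6% showed 1 and 0.0435% showed 8.

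Of the 6 junction genes, 5 had their highest CPM in cluster 6, with 1002 cells (6.54%), whose leading genes were Wfdc2, Stra8, Cxcl15, Cldn3, Wnt6 and Epcam. No cell type name was given to it, as none of the marker lists gave it one. Epcam reached 702 CPM there (here UMIs summed over the cluster and scaled to its total UMIs, 95% Poisson interval 689 to 714), against 180 over all cells. Cldn3 reached 171 against 31.2, Cldn4 88.0 against 16.8, Cldn6 196 against 51.6 and Cdh1 103.2 against 24.9 CPM. Cldn7 was at 342 CPM there, below its 374.5 in cluster 8, and gave more UMIs in cluster 5 (7309) than in cluster 6 (6184). Keratins were above all cells in cluster 6 too, with Krt18 at 1211, Krt8 at 763 and Krt19 at 598 CPM, against 658, 400 and 293. In thinned cells Epcam was detected in 51.8% of cluster 6 and 13.2% of all cells. Cluster 6 also had the highest Grhl2, an epithelial transcription factor, at 28.0 CPM against 5.15, and low Zeb1, at 17.9 against 62.1.

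Keratins were highest in cluster 8, with 661 cells led by Rhox9, Sct, Rhox6 and Nrk and left unnamed for its median of 2980 UMIs. Krt18 reached 2221 CPM there (2185 to 2257), Krt8 1920 (1886 to 1954) and Krt19 924 (901 to 948), above the same levels over all cells. In thinned cells 81.9% of cluster 8 had a Krt18 UMI. The junction genes were present too, with Epcam at 394 and Cdh1 at 82.9 CPM. Cldn6 was the exception, at 33.4 against 51.6 over all cells.

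Cluster 5, with 1282 cells, was extraembryonic endoderm-like, since 6 of 8 such markers were at least 2-fold above the other cells, Lama1 and Cubn among its leading genes. It had Cldn7 at 302 and Krt8 at 531 CPM but Cldn3 at 5.71, Cldn4 at 5.92 and Krt19 at 151. Cluster 1, mesothelial-like by 3 of 5 markers (Upk3b and Lrrn4 led it), had Krt19 at 333 and Krt8 at 214, and little Cdh1 (7.74) or Cldn4 (3.33). Cluster 3, interstitial-like by 4 of 6 markers and led by Acta2 and Col1a1, was low for all 10, with Krt18 at 241.3, Epcam at 30.3 and Cdh1 at 5.42 CPM, next to Vim at 610 and Snai2 at 71.6. Cells of these 3 clusters had median depths of 18340, 12070 and 14040 UMIs.

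Neuron-like cells (cluster 9, 75 cells, 5 of 5 markers) served as a low reference for keratin UMIs. Free RNA was not measured and doublets remain, so the source of keratin UMIs in these cells was not tested. In thinned cells 21.7% of them had a Krt18 UMI (exact binomial interval 12.7 to 33.3), 15.9% a Krt8 and 13.04% a Krt19, at a median depth of 9837 UMIs before thinning. Cluster 3 had 17.03%, 12.05% and 6.64%, at or below that level. By summed UMIs it stood higher for Krt18, at 241.3 CPM against 188 (158 to 223) in cluster 9. Krt8 was at 166 CPM against 96.9 (75.5 to 122), and Krt19 at 98.0 against 81.7 (62.2 to 105). Whether cluster 3 expressed keratins was therefore left undecided. Krt8 in cluster 1 (19.07%) and Krt19 in cluster 5 (14.96%) lay within the neuron-like intervals (8.24 to 26.7 and 6.14 to 23.3). Their summed UMIs, at 214 and 151 CPM, stood above the intervals of cluster 9, so these were left undecided too. In thinned cells the intervals of clusters 0, 5, 6, 7 and 8 lay above those of cluster 9 for Krt8 and Krt18. For Krt18 alone, those of clusters 1 and 2 did as well. Cluster 0 was shallow, with a median of 1462 UMIs, and 2340 of its 3395 cells were thinned. Its leading genes were AY036118, Gm42418 and Lars2. The median of cluster 7 was 2364 UMIs. The part of free RNA in the keratin UMIs of these shallow clusters was not tested. Cdh1 was found in 0 of the 69 thinned neuron-like cells, for which the exact binomial upper bound is 5.21%, and in 11.2% of cluster 6.

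**Figure D5:**
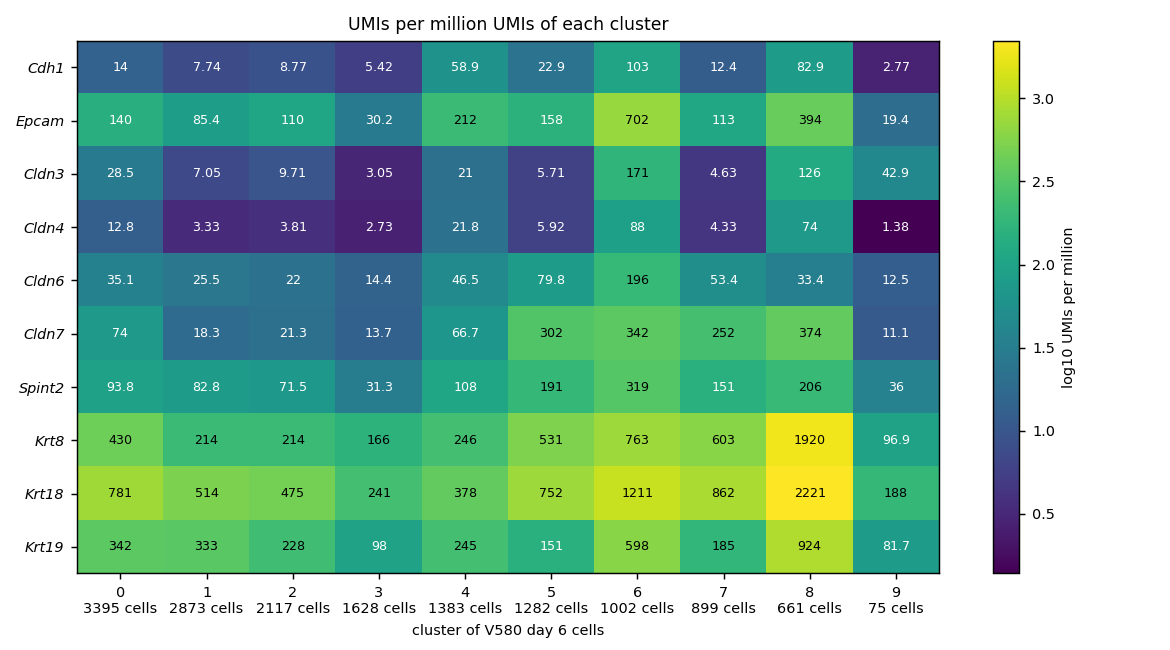
CPM of UMIs of 10 genes (rows) in 10 clusters of V580 day 6 cells (columns, with their numbers of cells); colour is log10 CPM and the numbers are the values. Cluster 6 holds the highest Cdh1 (103.2), Epcam (702), Cldn3 (171), Cldn4 (88.0), Cldn6 (196) and Spint2 (319), and cluster 8 the highest Cldn7 (374), Krt8 (1920), Krt18 (2221) and Krt19 (924).

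Across the 13 FPKM groups, Cdh1 with Epcam and the keratins varied apart, described here without a test since libraries of one group share their source. Over group means of log2(FPKM+1), Pearson's r was 0.98 between Cdh1 and Epcam and 0.98 between Krt8 and Krt18. Krt19 correlated with both at 0.89, and Cdh1 with Krt8 at -0.16. The claudins lay between, with Cldn4 at 0.84 to Cdh1 and 0.32 to Krt8, Cldn3 at 0.63 and 0.62, and Cldn7 at 0.39 and 0.575. Spint2 was at 0.53 and 0.59. The claudins and Spint2 also correlated with each other, from 0.61 (Cldn4 and Cldn7) to 0.91 (Cldn3 and Cldn4), with Cldn7 and Spint2 at 0.90. The 5 genes outside the lists whose group means were most like the average of the 9 members were Rhpn2 (r = 0.978), Lama5 (0.959), Pqlc3 (0.956), Cdkn2a (0.951) and Tnfrsf10b (0.947), over 13 groups and among 11694 genes.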

How the data were processed

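The members and gene lists were chosen with earlier results of these data known. Induced cells and E12.5_GC came as deposited FPKM values for 13682 genes in 31 libraries; how the authors made them is not given in the sources used here, and RSEM is named in the submitters' processing notes without a role. Stage libraries came as deposited counts that the authors made with HISAT2 and featureCounts on mm10, with 22173 genes in 8 libraries. The single-cell table held deposited UMI counts from Cell Ranger (mm10). In 1 further table, 10 per-sample columns were not used.

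FPKM were tested on log2(FPKM + 1) with limma 3.58.1 (trend), on genes with at least 1 FPKM in 2 (24 h and 48 h) or 3 (days) libraries. Each set had 1 fit, and V580_D4 against V580_48h, which the study describes as separate sets, had a joint one. Counts were tested with edgeR 4.0.16 (R 4.3.3; TMM, filterByExpr, quasi-likelihood) over 16398 genes, and called at an adjusted p under 0.05 with no fold minimum. DESeq2 1.42.0, other scalings, filters and pseudocounts, a length offset, a replicate block and leaving out each library were alternatives. Both bulk tests were tested on simulated data. Single cells were kept from 200 genes upward if mitochondrial UMIs made up 40% or less, and clustered in scanpy 1.11.5 (2000 variable genes, 20 principal components, 20 neighbours, Leiden resolution 0.5). scrublet marked 1 cell and was not used, so doublets remain. Intervals are at 95%. All members were named; other genes were the 3 called epithelial-list genes with the largest changes in 3 comparisons, called regulators, and Zeb1, Zeb2, Snai1, Snai2, Vim and Cdh2.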

Additional observations from a re-analysis of the deposited data

Results flagged for a closer look

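The effect of AM580 against the control differed between 48 h and 24 h for the keratin pair, by a test of the difference itself in limma. It was larger at 48 h by 1.45 on the log2(FPKM+1) scale for Krt8 (SE 0.08, adjusted p = 6.20e-09) and by 1.03 for Krt18 (SE 0.06, adjusted p = 1.36e-08). The effect of V580 on Cldn7 differed as well, at -1.20 (SE 0.20, adjusted p = 0.000351). Each effect rests on 2 libraries a group, and both effects at a time share the same control libraries.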

How the results depend on the processing

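With the 2-fold minimum removed, an alternative chosen after seeing the data, the called members were 3 for Vc, 3 for AM580 and 5 for V580 at 24 h, 3 for V580 against AM580 at 24 h, and 3, 9, 7 and 6 for the same comparisons at 48 h. They were 8 between the control times, 8 and 5 for the AM580 and V580 effects between times, and 6, 6 and 1 for days 6, 8 and 10 against the sampled day before. Except for AM580 at 48 h, these counts stand without the share of all genes and are not read as a result about the members. With a 2-fold minimum, also added later, 3 members passed from E13.5 to the E16.5 stage, and a length offset left 4 from E12.5 to E13.5. Of the 10 genes, 9 were found in at least 10% of single cells, and 5 after thinning. Krt8 from E13.5 to E16.5 changed sign with RLE size factors (-0.013), in DESeq2 (-0.010) and with only those stages fitted (-0.011), and ranged from -0.045 to 0.031 with 1 library left out. Cldn6 from E16.5 to P6w ranged from -0.556 to 1.613. The cause was not tested. Over 152 member values, other settings left 765 results on the same side, 12 newly past and 7 no longer past the threshold and 3 with another sign; leaving out libraries gave 741, 8, 15 and 2.

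Whether replicate numbers pair samples was not settled. Over same-numbered libraries, deviations correlated at -0.445 to 0.225 (24 h and 48 h), -0.441 to 0.401 (days) and -0.040 to 0.067 (stages). The medians were 0.017, 0.031 and 0.006. With the replicate block, 7 members instead of 6 were called in V580_D4 against V580_48h (Spint2, 1.04) and 8 instead of 7 between E12.5 and E13.5 (Cldn4, 1.12); other member counts were the same. Within each FPKM set every group holds every replicate number, so the block leaves all differences as they were by construction and alters only their errors. The equal counts there say nothing about stability. A pseudocount of 0.1 moved the number of all genes called by over 1.5 times in the comparisons within induced cells, for example from 9 to 42 for Vc at 24 h, 344 to 664 for AM580 and 339 to 670 for V580 at 48 h, and 1855 to 3038 from 48 h to day 4. Between E12.5 and E16.5 it was 6160, and 3814 or 3899 without E12.5 replicate 1 or 2; for Vc at 48 h it was 5, and 8 without Vc_48h or Con_48h replicate 1. Depth limits Cdh1, Cldn3, Cldn6 and Cldn7 in the stage libraries, with 8 to 73 counts each.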
